A study of Mus musculus with 6 samples.

Results

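The transcripts of the mitochondrial genome were taken as the genes of the deposited FPKM table whose name starts with mt-, which gave 37 of its 54532 genes. All 37 lie on the mitochondrial chromosome, MT, and comprise 13 mRNAs, 2 rRNAs and 22 tRNAs. RNA had been measured by RNA-seq in islets of the mouse pancreas, labelled as beta cells, in 2 groups of 3 libraries. Control libraries carry the genotype label wt and the numbers 1, 3 and 4, and the other group is labelled Cko, a conditional knockout (cKO) of Bcas2, with columns numbered 3, 4 and 5. The labels give Bcas2 cKO samples 1, 3 and 4, so the column numbered 5 was used as a member of its group with no sample of its own. The series' design text speaks of a knockdown of Bcas2, a spliceosome component, in beta cells. The Cre driver, the deleted part of the gene and the age and sex of the mice are not given in the sources at hand. Nothing in the labels says that libraries came from separate animals, and the p-values therefore reflect the spread among these 6 libraries, which may be technical.

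Mitochondrial DNA is a small circle that carries genes on both strands. Each strand is transcribed by the RNA polymerase POLRMT, with TFAM and TFB2M, into long RNAs that hold many genes in a row. The tRNAs lie between the mRNAs and rRNAs, and RNase P and ELAC2 cut at the ends of the tRNAs to release the RNAs on each side. The mRNAs receive poly(A) tails, the rRNAs short tails, and mature tRNAs end in CCA. The 13 proteins are subunits of complexes I, III, IV and V of oxidative phosphorylation, which makes the ATP that closes potassium channels and starts insulin release in beta cells.

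The libraries held 15170439 to 15594871 reads on genes in the controls and 16351800 to 16904326 in Bcas2 cKO, as recovered from the FPKM values, which are read counts divided by gene length and library depth. Bcas2 itself was 10.3, 15.04 and 11.2 FPKM in control libraries 1, 3 and 4 and 8.76, 8.40 and 9.14 FPKM in Bcas2 cKO libraries 3, 4 and 5. It differed by -0.42 on the log2 scale (SE 0.13), with a limma adjusted p of 0.083 and a 2-sided exact permutation p of 0.1, the smallest that 3 against 3 libraries allow. The adjusted p was 0.049 without control library 1. Beta cell markers, present in all libraries, made up 20.5 to 28.8% of control reads and 14.7 to 16.1% of Bcas2 cKO reads. Of these markers, 3 of 11 fell and none rose. The insulin genes Ins1 and Ins2 alone made up 18.5 to 26.7% of control reads and 13.3 to 14.6% of Bcas2 cKO reads. Acinar cell markers, of the enzyme-secreting tissue around the islets, made up 0.678 to 1.64% and 2.21 to 6.16%, with 13 of 30 tested markers risen and none fallen. Immediate early and heat shock genes made up 0.232 to 0.598% and 1.57 to 1.93%, with 15 of 19 risen and none fallen. Over all tested genes, 6.97% rose and 7.55% fell at a limma adjusted p under 0.05. In bulk RNA, fewer cells of a type and less RNA per cell cannot be told apart.

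Below, the sequences of the RNAs on which the results turn are given in GRCm38, each read 5′ to 3′ from the GENCODE M21 transcripts, in which all 37 genes were found with the same identifier and length as in the table. The first set is a cluster of tRNA genes between mt-Nd2 and mt-Co1, with the anticodon in capitals. mt-Tw (tryptophan, MT:4950-5016) is on the plus strand, and mt-Tn (asparagine, MT:5089-5159), mt-Tc (cysteine, MT:5192-5257) and mt-Ty (tyrosine, MT:5260-5326) are on the minus strand. The last sequence is the 3′ end of the 12S rRNA, mt-Rnr1 (MT:70-1024, plus strand, bases 896 to 955 of the gene). Its capitals mark the GGAA loop whose adenosines the methyltransferase TFB1M modifies.
mt-Tw: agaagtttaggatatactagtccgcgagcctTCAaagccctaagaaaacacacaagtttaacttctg
mt-Tn: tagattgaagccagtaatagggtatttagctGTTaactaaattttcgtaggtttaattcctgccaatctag
mt-Tc: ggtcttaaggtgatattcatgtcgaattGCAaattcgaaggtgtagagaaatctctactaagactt
mt-Ty: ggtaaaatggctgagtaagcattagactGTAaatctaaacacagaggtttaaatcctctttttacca
mt-Rnr1 end: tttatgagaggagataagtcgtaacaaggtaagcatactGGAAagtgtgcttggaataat

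In Bcas2 cKO, the mitochondrial mRNAs were not called changed, whereas the 12S rRNA and 2 tRNA genes of this cluster rose. The libraries came from an mRNA-seq kit, so reads on rRNA and tRNA genes show only the part of these RNAs that was captured. Whether that part follows their amount in the cells, or was captured alike in both groups, was not tested. Of the 37 genes, 27 had a mean of at least 1 FPKM and were tested, all 13 mRNAs, both rRNAs and 12 tRNAs. Of the 27, 3 rose (mt-Rnr1, mt-Tc and mt-Tw), none fell and 24 did not pass (limma on log2(FPKM + 1), Benjamini-Hochberg adjusted p under 0.05 over all 13723 tested genes). In the alternative with voom on the recovered reads, 6 rose and 1 fell. Among all tested genes 14.5% were called, 6.97% as rises and 7.55% as falls. The median log2 fold change was -0.06 over the 27 genes and -0.03 over all tested genes. By class, the median was -0.16 for the mRNAs, 0.77 for the rRNAs and 0.63 for the tested tRNAs.

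**Figure D1:**
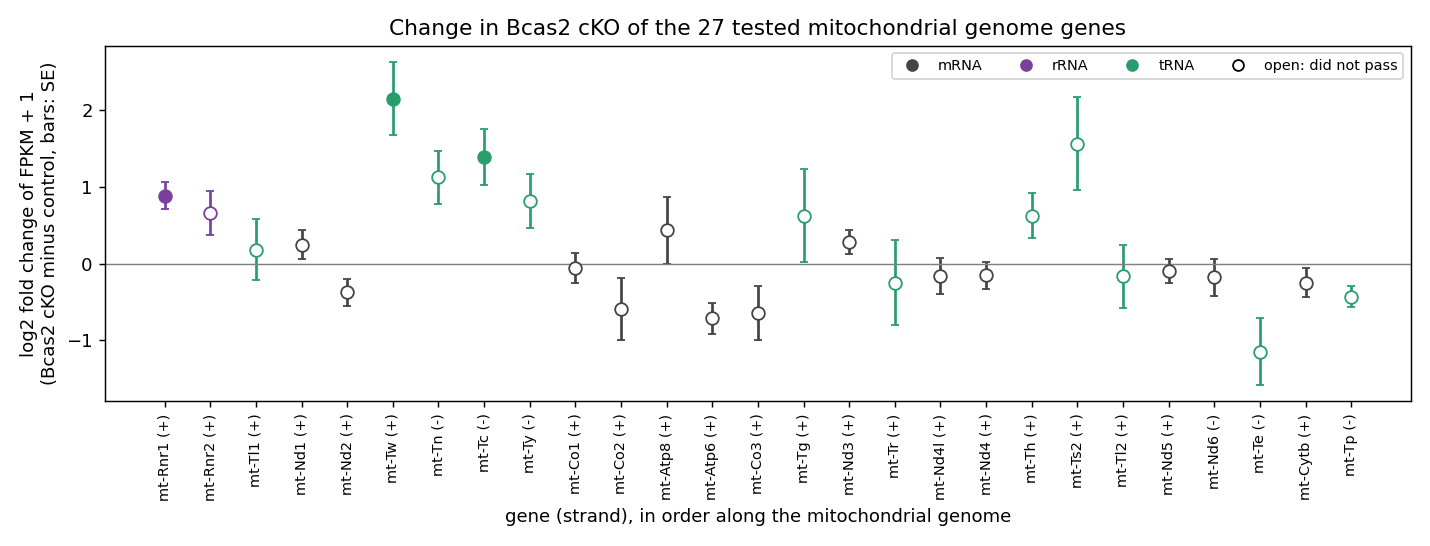
Log2 fold change of FPKM + 1 (Bcas2 cKO minus control, y axis, bars are SE from limma) for the 27 tested mitochondrial genes in their order along the genome (x axis, strand in brackets); filled points passed the test. The rRNAs and the tRNA genes mt-Tw, mt-Tn, mt-Tc and mt-Ty lie above 0, while 10 of the 13 mRNAs lie below it (8 with FPKM rebuilt from the recovered reads) and none of them passed.

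The share of reads on the mitochondrial genome overlapped between the groups. It was 1.55, 1.66 and 1.75% in control libraries 1, 3 and 4 and 1.66, 1.66 and 1.82% in Bcas2 cKO libraries 3, 4 and 5, with means of 1.65 ± 0.103 and 1.72 ± 0.0875% (SD, n = 3 each). The ranges overlapped and the ratio of the means was 1.04. The shares here and below are of the recovered totals, while the fold changes use the deposited scaling. The depth in that scaling was 0.890 to 1.02 times the recovered totals in the controls and 1.02 to 1.11 times in Bcas2 cKO. Ratios of shares therefore stand higher than fold changes in FPKM. With the hormone genes left out of the total, the shares were 2.02 to 2.43% and 2.04 to 2.28%, and the ratio was 0.933. The mRNAs made up 98.6 to 98.9% of the mitochondrial reads in the controls and 97.5 to 98.2% in Bcas2 cKO.

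The rRNA reads were few and separated the groups. They were 0.0133, 0.0201 and 0.0181% of all reads in control libraries 1, 3 and 4 and 0.0260, 0.0301 and 0.0394% in Bcas2 cKO libraries 3, 4 and 5. Every Bcas2 cKO value lay above every control value, with a ratio of the means of 1.85. The tRNA reads were 0.00315 to 0.00383% in the controls and 0.00353 to 0.00602% in Bcas2 cKO, and these ranges overlapped. Within the tRNA reads, the 5 genes mt-Tw, mt-Ta, mt-Tn, mt-Tc and mt-Ty took 19.8 to 30.5% in the controls and 45.0 to 58.1% in Bcas2 cKO.

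**Figure D2:**
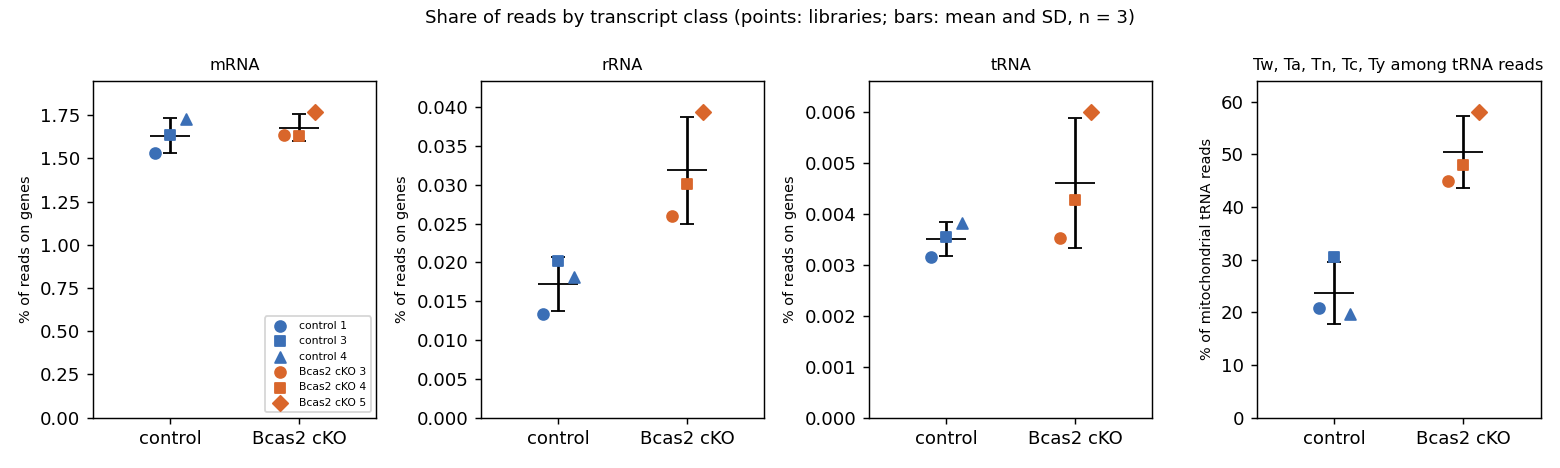
Share of all reads on genes that fell on mitochondrial mRNAs, rRNAs and tRNAs, and share of the tRNA reads on the 5 genes between mt-Nd2 and mt-Co1 (y axes in percent, from 0), for 3 control and 3 Bcas2 cKO libraries with mean and SD. The mRNA ranges overlap, and the rRNA share and the share of the 5 genes are higher in every Bcas2 cKO library than in every control library. The share of the 5 genes mostly restates mt-Tc and mt-Tn.

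The 12S rRNA, the RNA of the small subunit of the mitochondrial ribosome, rose in its captured reads. mt-Rnr1 (ENSMUSG00000064337) was 47.9, 72.5 and 57.7 FPKM in control libraries 1, 3 and 4 and 92.8, 114 and 123 FPKM in Bcas2 cKO libraries 3, 4 and 5. The groups did not overlap, and the lowest Bcas2 cKO library was above the highest control library. The means were 59.4 ± 12.4 and 109.9 ± 15.5 FPKM (SD, n = 3 each), a log2 fold change of 0.89 (SE 0.17, limma adjusted p 0.020). Behind these values stood 725 to 935 reads in the controls and 1607 to 2026 in the Bcas2 cKO libraries. Without a library the log2 fold change was 0.74 to 1.04, and the limma adjusted p missed the threshold without control library 4 (0.069), Bcas2 cKO library 4 (0.070) and Bcas2 cKO library 5 (0.068). The beta cell, acinar and immediate early shares given above also separated the groups. So did ductal markers (0.0504 to 0.0539% in the controls, 0.101 to 0.124% in Bcas2 cKO). The same held for macrophage and lymphocyte markers (0.0131 to 0.0152%, 0.0184 to 0.0236%) and alpha, delta and PP cell markers (3.53 to 3.68%, 4.39 to 4.83%). Endothelial and stellate marker shares overlapped. The part of these shares in the mt-Rnr1 result was not tested.

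The 16S rRNA, of the large ribosomal subunit, was higher on average but its libraries overlapped. mt-Rnr2 (ENSMUSG00000064339, MT:1094-2675, plus strand) was 53.8, 99.2 and 83.3 FPKM in the controls and 91.9, 114 and 169.9 FPKM in Bcas2 cKO, in the same library order. Control library 3 was above Bcas2 cKO library 3. The log2 fold change was 0.66 (SE 0.29, limma adjusted p 0.17). With voom on the recovered reads the limma adjusted p was 0.030. Per kilobase, both rRNAs were far below the abundant mRNAs: the 12S level was 1.26 to 1.72% of that of mt-Co1 in the controls and 2.45 to 2.98% in Bcas2 cKO.

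The tRNA genes between mt-Nd2 and mt-Co1 moved in the same direction in their mean levels, and mt-Tw and mt-Tc passed the test. mt-Tc (ENSMUSG00000064349), the gene of the cysteine tRNA, was 57.3, 97.7 and 66.0 FPKM in control libraries 1, 3 and 4 and 119, 183 and 318 FPKM in Bcas2 cKO libraries 3, 4 and 5. Its groups did not overlap, and Bcas2 cKO library 5 stood highest. Its log2 fold change was 1.39 (SE 0.36, limma adjusted p 0.047), from 60 to 87 reads in the controls and 142 to 362 in the Bcas2 cKO libraries. Among the fits that left out a library, its call held only without Bcas2 cKO library 3 (limma adjusted p 0.031), and the adjusted p was 0.061 to 0.13 without any of the other 5.

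mt-Tw (ENSMUSG00000064346), the gene of the tryptophan tRNA, had 1, 4 and 3 reads in control libraries 1, 3 and 4 and 13, 12 and 32 reads in Bcas2 cKO libraries 3, 4 and 5. In FPKM these were 0.941, 4.42 and 3.05 against 10.7, 10.2 and 27.7. The groups did not overlap, though the control values rest on single reads. Its log2 fold change was 2.15 (SE 0.48, limma adjusted p 0.029), and the call held without control library 1 (0.047) or 3 (0.041). The limma adjusted p was 0.057 to 0.076 without any of the other 4.

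mt-Tn (ENSMUSG00000064348), for asparagine, was 32.9, 73.0 and 39.3 FPKM in the controls and 75.3, 92.0 and 148 FPKM in Bcas2 cKO. Every Bcas2 cKO library was above every control library, and the change did not pass (log2 fold change 1.13, SE 0.35, limma adjusted p 0.073). It passed with voom on the recovered reads (limma adjusted p 0.024), with quantile normalization (0.049) and without control library 3 (0.036), among other settings. The tyrosine gene mt-Ty had 3 to 7 reads in the controls and 7 to 15 in Bcas2 cKO and did not pass (limma adjusted p 0.17). mt-Ta, for alanine, between mt-Tw and mt-Tn, had at most 1 read in any library. Between mt-Tn and mt-Tc lie 32 bases that belong to no gene of the table, where the origin of light-strand replication is known to be.

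Bcas2 cKO library 5 was the highest of all libraries for mt-Rnr1, mt-Rnr2, mt-Tw, mt-Tn, mt-Tc and mt-Ty. It also had the highest share of acinar markers, 6.16%, against 2.21 and 2.92% in Bcas2 cKO libraries 3 and 4. The order was the opposite in the controls. Control library 1 had the highest acinar share of the controls, 1.64%, against 0.746 and 0.678% in control libraries 3 and 4. It had the lowest control value of each of these genes. Without Bcas2 cKO library 5, the log2 fold change of mt-Rnr1 was 0.80, that of mt-Tc 1.03 and that of mt-Tw 1.71. All were in the same direction and none passed the threshold. The part of acinar RNA in these changes was not tested.

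**Figure D3:**
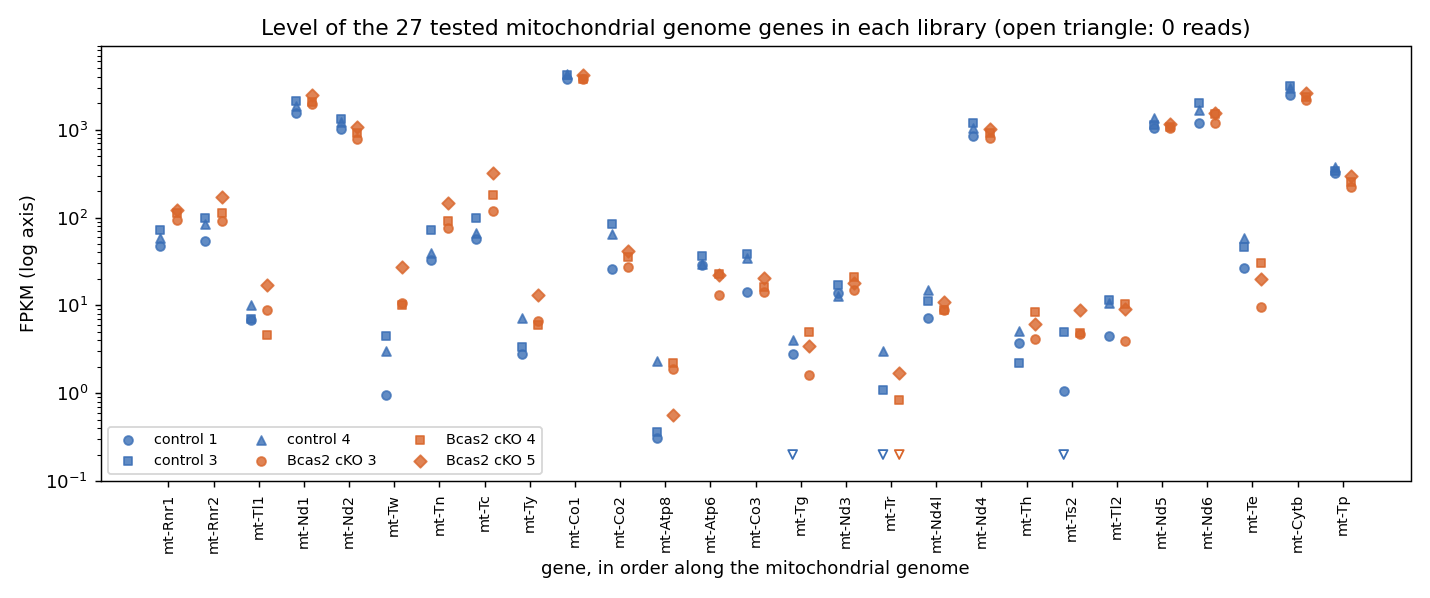
FPKM (y axis, log scale) of each of the 27 tested mitochondrial genes in every library, in genome order (x axis); colour gives the group, the marker the library, and an open triangle a library with 0 reads. For mt-Rnr1, mt-Tw, mt-Tn and mt-Tc the 3 Bcas2 cKO libraries lie above the 3 control libraries, and for mt-Atp6 and mt-Tp they lie below.

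The remaining tRNA genes gave few reads apart from mt-Tp, and none was called. mt-Tp (ENSMUSG00000064372, MT:15356-15422, minus strand), for proline, was 319, 337 and 380.0 FPKM in control libraries 1, 3 and 4 and 224, 251 and 295 FPKM in Bcas2 cKO libraries 3, 4 and 5. Its groups did not overlap, but the fall did not pass (log2 fold change -0.43, SE 0.14, limma adjusted p 0.082). It passed with quantile normalization (-0.65, limma adjusted p 0.020). mt-Te, for glutamate, next to mt-Nd6 on the minus strand, was 26.5, 46.2 and 58.2 FPKM against 9.59, 30.5 and 20.2 FPKM. One Bcas2 cKO library lay within the control range, and its change did not pass (-1.15, SE 0.43, limma adjusted p 0.12). The tested plus-strand genes mt-Tl1, mt-Tl2, mt-Tg, mt-Tr, mt-Th and mt-Ts2 had at most 22 reads in any library and limma adjusted p of 0.13 to 0.82. mt-Ts2 was 1.07, 5.02 and 0 FPKM against 4.67, 4.82 and 8.84 FPKM, and passed only without control library 3 (0.026) of the settings tried.

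Of the 22 tRNA genes, 10 missed the level for testing, with at most 3 reads in any library, and mt-Tf and mt-Td had none in all 6. Only 4 tRNA genes had over 100 reads over the 6 libraries, and mt-Tp, mt-Tc and mt-Tn held 86.4% of the 3929 tRNA reads. The 8 tRNA genes of the minus strand held 92.8%. The sources do not say whether counting used strand. Reads from plus-strand RNA that runs across a minus-strand tRNA gene are therefore not separated from the tRNA itself. The same limit holds for minus-strand RNA across plus-strand genes such as mt-Tw.

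Among all 27 tested genes, 4 had every Bcas2 cKO value above every control value (mt-Rnr1, mt-Tw, mt-Tn and mt-Tc). Over all tested genes 16.8% had this property. The opposite order held for 2 genes (mt-Atp6 and mt-Tp), against 21.1% of all tested genes. Both counts are at or below the share among all tested genes.

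Of the 13 mRNAs, 7 were among the most abundant RNAs of the islets, and none of the 13 passed the test. mt-Co1 (ENSMUSG00000064351, MT:5328-6872), the catalytic subunit of complex IV, ranked 9 of all genes by mean FPKM. It was 3812, 4226 and 4267 FPKM in control libraries 1, 3 and 4 and 3778, 3829.7 and 4192 FPKM in Bcas2 cKO libraries 3, 4 and 5. The groups overlapped, with a log2 fold change of -0.06 (SE 0.20, limma adjusted p 0.86). mt-Cytb (ENSMUSG00000064370, MT:14145-15288), the cytochrome b of complex III, was 2489, 3149.9 and 2959 FPKM against 2205, 2389 and 2624 FPKM. Bcas2 cKO library 5 lay within the control range, and the log2 fold change was -0.25 (SE 0.19, limma adjusted p 0.41).

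The complex I genes, the ND subunits of the membrane arm that pumps protons, split in direction. mt-Nd1 (ENSMUSG00000064341, MT:2751-3707), which follows the rRNAs on the plus strand, was 1554, 2097 and 1849 FPKM in the controls and 1959, 2074 and 2489 FPKM in Bcas2 cKO. mt-Nd2 (ENSMUSG00000064345, MT:3914-4951), the next mRNA after it, was 1029, 1342 and 1227 FPKM against 776, 929.5 and 1072 FPKM. Both genes overlapped between groups, and neither passed: mt-Nd1 differed by 0.25 on the log2 scale (SE 0.19, limma adjusted p 0.42) and mt-Nd2 by -0.38 (SE 0.18, limma adjusted p 0.21). With voom mt-Nd1 passed (log2 fold change 0.39, limma adjusted p 0.047). With quantile normalization mt-Nd2 passed (-0.90, limma adjusted p 0.0032), while mt-Nd1 turned to -0.22 without passing (0.43).

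Their ratio within a library, which no scale factor of a library can move, separated the groups more cleanly than either gene. mt-Nd1 over mt-Nd2 was 1.51, 1.56 and 1.51 in control libraries 1, 3 and 4 and 2.52, 2.23 and 2.32 in Bcas2 cKO libraries 3, 4 and 5. The means were 1.53 ± 0.0313 and 2.36 ± 0.150 (SD, n = 3 each), so the difference was several times the spread in either group. This pair was chosen after its values were seen, and the ratio is given with no test. In these libraries the 2 genes differed unequally between the groups, and the ratio does not tell which of them changed. Because the pair was picked for its separation, that separation is no evidence of a change beyond these libraries.

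**Figure D4:**
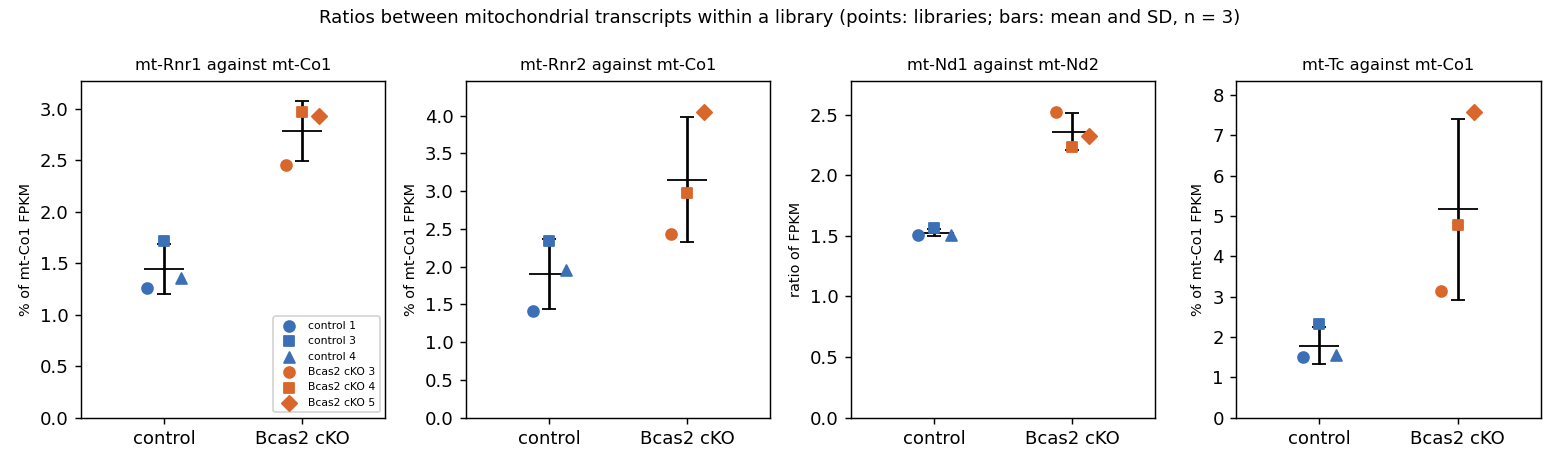
Ratios of FPKM between mitochondrial transcripts within each library (y axes from 0, in percent of mt-Co1 or as a plain ratio), with mean and SD of 3 control and 3 Bcas2 cKO libraries. The ratio of mt-Nd1 to mt-Nd2, a pair chosen after its values were seen, lies at 1.51 to 1.56 in the controls and 2.23 to 2.52 in Bcas2 cKO. Relative to mt-Co1, mt-Rnr1 and mt-Tc are higher in every Bcas2 cKO library.

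The other complex I mRNAs of high level did not differ beyond their spread. mt-Nd4 (MT:10167-11544) was 1017 ± 169.6 and 910.0 ± 107 FPKM in the controls and Bcas2 cKO (SD, n = 3 each), and mt-Nd5 (MT:11742-13565) was 1182 ± 161 and 1095 ± 58.7 FPKM. mt-Nd6 (MT:13552-14070), the only mRNA of the minus strand, was 1185, 2028 and 1657 FPKM in the controls and 1189.8, 1507 and 1531 FPKM in Bcas2 cKO. Its control libraries spanned a wider range than the Bcas2 cKO libraries and contained them all. Log2 fold changes were -0.15, -0.10 and -0.18 (limma adjusted p 0.60, 0.70 and 0.65). mt-Nd6 overlaps the end of mt-Nd5 by 14 bases on the other strand. As the strand setting is not stated, reads from plus-strand RNA that runs across mt-Nd6 are not separated from its mRNA.

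The remaining 6 mRNAs stood far lower. The mean level was above 900 FPKM for 7 mRNAs and under 50 FPKM for mt-Co2, mt-Co3, mt-Atp6, mt-Atp8, mt-Nd3 and mt-Nd4l, although all but mt-Nd6 are cut from RNAs of the same strand. The 6 genes lie together between mt-Co1 and mt-Nd4. For 5 of them (mt-Atp8 apart) 98.0 to 100% of all 50-base words of the gene also occurred in nuclear transcripts of GENCODE M21. For the 7 abundant mRNAs the share was 0 to 62.2%. Together the 5 genes held 0.448% of the mRNA reads. For mt-Atp8 the share was 0%, but only annotated transcripts were searched and not the genome between them. A nuclear copy of mt-Atp8 outside annotated transcripts would have been missed.

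**Figure D5:**
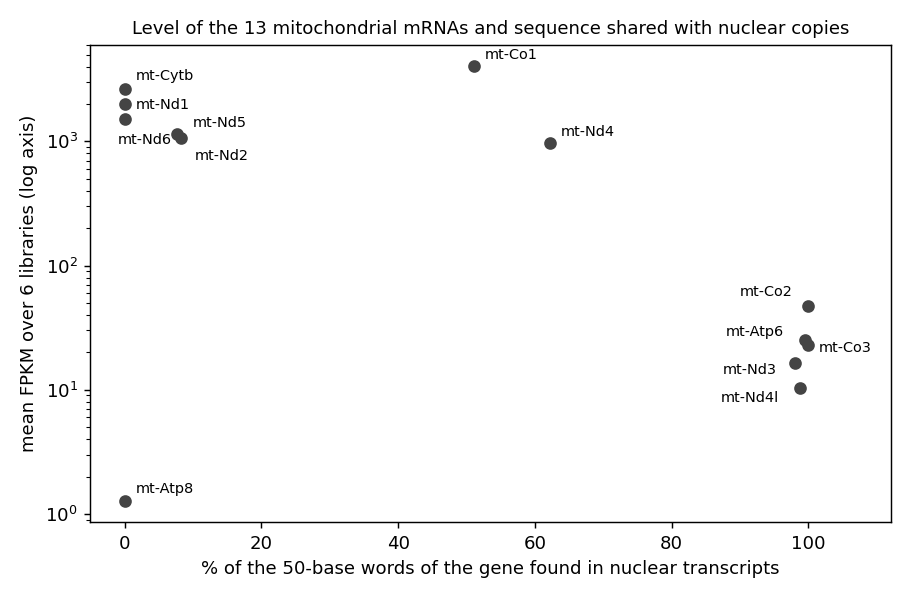
Mean FPKM over the 6 libraries (y axis, log scale) of the 13 mitochondrial mRNAs against the percent of their 50-base words that also occur in nuclear transcripts (x axis). The 5 genes at 98.0 to 100% lie between 10.4 and 46.8 FPKM and the 7 abundant mRNAs between 964 and 4018 FPKM, with mt-Atp8 low at 0%. Only annotated transcripts were searched, so 0% does not exclude a nuclear copy.

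Of these nuclear transcripts, those on chromosome 2 are less alike copies of mt-Co1, mt-Co2 and part of mt-Nd2. The closest are pseudogenes on chromosome 1 that copy this stretch of the mitochondrial genome. There are 7 of them within chromosome 1, 24611535 to 24616197 (GRCm38, minus strand), namely Gm29216 (a copy of part of mt-Co1), Gm28661 (mt-Co2), Gm10925 (mt-Atp6), Gm28437 (mt-Co3), Gm28438 (mt-Nd3), Gm10222 (mt-Nd4l) and Gm28439 (part of mt-Nd4). For 6 of the 7, every aligned base was identical, 681 of 681 for mt-Co2 and Gm28661. Gm29216 matched mt-Co1 at 482 of 483 bases, with the substitution A1066T, counted from the first base of mt-Co1 with its base first. Windows of 120 bases show the identity of the first pair (bases 281 to 400 of each gene) and the lone difference of the second, in capitals (bases 1063 to 1182 of mt-Co1 and 10 to 129 of Gm29216).
mt-Co2: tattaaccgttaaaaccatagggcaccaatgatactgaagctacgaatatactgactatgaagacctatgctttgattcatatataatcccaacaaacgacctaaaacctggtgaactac
Gm28661: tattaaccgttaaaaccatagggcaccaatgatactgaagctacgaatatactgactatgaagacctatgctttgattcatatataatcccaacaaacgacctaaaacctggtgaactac
mt-Co1: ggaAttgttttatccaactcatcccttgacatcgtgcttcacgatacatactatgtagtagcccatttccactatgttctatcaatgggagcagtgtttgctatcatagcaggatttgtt
Gm29216: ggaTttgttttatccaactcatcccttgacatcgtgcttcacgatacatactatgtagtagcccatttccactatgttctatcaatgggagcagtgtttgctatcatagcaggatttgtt

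A read that lies inside such a stretch cannot be assigned to one locus, so the levels of the 5 genes copied almost whole, and of the copies, are uncertain. The same holds in part for mt-Co1 and mt-Nd4, with 51.1 and 62.2% of their 50-base words in nuclear transcripts, and for the ratios to mt-Co1. For mt-Nd2 and mt-Nd5 the share was 8.19 and 7.61%, so the ratio of mt-Nd1 to mt-Nd2 is touched to a smaller extent. How the authors treated such reads is not stated. The copy of mt-Co2 was listed at a level near that of the gene itself. Gm28661 was 19.0, 73.8 and 61.1 FPKM in control libraries 1, 3 and 4 and 20.8, 30.9 and 29.2 FPKM in Bcas2 cKO libraries 3, 4 and 5. mt-Co2 (ENSMUSG00000064354, MT:7013-7696), a complex IV subunit, was 26.3, 83.8 and 65.7 FPKM against 27.1, 35.97 and 42.0 FPKM. Both were low in control library 1 and high in control libraries 3 and 4. None of the 7 copies passed the test, with limma adjusted p of 0.052 to 0.91.

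Of the 6 low mRNAs, mt-Atp6 (ENSMUSG00000064357, MT:7927-8607), the proton channel subunit of ATP synthase, came nearest to a call. It was 28.5, 36.4 and 29.6 FPKM in the controls and 13.2, 22.5 and 21.9 FPKM in Bcas2 cKO. The groups did not overlap, and the log2 fold change was -0.72 (SE 0.21, limma adjusted p 0.062). It passed over genes of at least 5 FPKM (limma adjusted p 0.045), with voom (0.046) and with libraries rescaled without hormone genes (0.045). Its identical copy Gm10925 was 20.7, 39.8 and 38.4 FPKM against 23.7, 26.2 and 26.7 FPKM, with a log2 fold change of -0.30 and a limma adjusted p of 0.42.

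mt-Co3 (MT:8607-9390), another complex IV subunit, was 14.2, 38.2 and 34.4 FPKM in the controls and 14.1, 16.02 and 20.3 FPKM in Bcas2 cKO (log2 fold change -0.64, limma adjusted p 0.26). As with mt-Co2, control library 1 lay with the Bcas2 cKO libraries, and without it the limma adjusted p was 0.013 for mt-Co3 and 0.025 for mt-Co2. mt-Nd3 was 14.6 ± 2.37 and 18.0 ± 3.09 FPKM and mt-Nd4l 11.2 ± 3.96 and 9.55 ± 1.20 FPKM (SD, n = 3 each), with limma adjusted p of 0.25 and 0.68. mt-Atp8, the second ATP synthase subunit, had 1 to 7 reads in the controls and 2 to 8 in Bcas2 cKO.

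The signs of a few mRNAs depend on the scaling between libraries, while the median of the class was below 0 in every setting tried. In the deposited scaling 3 had a positive and 10 a negative log2 fold change. With FPKM rebuilt from the recovered reads and their plain totals, the median over all tested genes moved, on the log2 scale, from -0.03 to 0.09, and 5 mRNAs were positive and 8 negative. Calls over all genes were then 1394 rises and 421 falls, against 957 and 1036 as deposited. Relative to the median of all genes, the mRNA median was -0.14 in the deposited and -0.12 in the rebuilt scaling.

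Nuclear genes that transcribe, process and translate mitochondrial RNA were mostly not called. The lists were drawn up with earlier results of these data known. Of 86 tested genes on 7 lists, 2 rose, 2 fell and 82 did not pass, or 4.65% called, against 14.5% of all tested genes. The count depends on the scaling, with 9 called in rebuilt FPKM, 9 with median-of-ratios scaling, 9 rescaled without the mt- genes, 10 with quantile normalization and 12 with voom. None of the 10 tested genes of mitochondrial transcription passed. Polrmt, the RNA polymerase, was 6.42 ± 0.0693 and 8.27 ± 0.952 FPKM (limma adjusted p 0.060), and passed in several other settings, rebuilt FPKM among them (log2 fold change 0.44, limma adjusted p 0.038). Tfam, which packages and activates the genome, was 7.54 ± 0.928 and 6.04 ± 0.417 FPKM (limma adjusted p 0.11; SD, n = 3 each). Tfam and Tfb1m were added for their roles after their values were seen. Tfb1m, the methyltransferase of the 12S loop shown above, was 2.18 ± 0.253 and 1.59 ± 0.573 FPKM (limma adjusted p 0.26). None of 8 genes of mRNA stability and decay passed. Lrpprc, which stabilises mitochondrial mRNAs, was 10.3 ± 0.559 and 9.02 ± 0.372 FPKM, and the exonuclease gene Rexo2 had a log2 fold change of -0.12.

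The genes called were Polg2 and Mpv17 of the 11 for mitochondrial DNA replication and maintenance, Fastk of the 14 for RNA processing and Esrrg of the 7 biogenesis regulators. Polg2, the accessory subunit of the mitochondrial DNA polymerase, rose from 1.68, 2.30 and 1.67 FPKM in control libraries 1, 3 and 4 to 5.43, 4.12 and 6.14 FPKM in Bcas2 cKO libraries 3, 4 and 5. Its groups did not overlap, and its call (log2 fold change 1.11, SE 0.15, limma adjusted p 0.0066) held without each library in turn. Mpv17, an inner membrane protein needed to keep mitochondrial DNA, fell from 10.3 ± 0.809 to 7.07 ± 0.437 FPKM (limma adjusted p 0.014), and held in 5 of the 6 leave-one-out fits. Fastk, whose family binds mitochondrial RNA, rose by 0.29 on the log2 scale, and Esrrg, an orphan nuclear receptor, fell by 0.55. Fastk held in 1 and Esrrg in 2 of the 6 fits, and Esrrg missed the threshold in rebuilt FPKM (limma adjusted p 0.059).

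None of the 23 tested genes of rRNA and tRNA modification or of the 13 translation factors passed. The members of highest level on these lists were Qtrt1, a queuine tRNA transferase subunit, with a log2 fold change of 0.32 (limma adjusted p 0.061, and 0.014 in rebuilt FPKM, where it was 0.45), Trit1 (0.18), the elongation factor gene Tufm (0.01) and the initiation factor gene Mtif2 (-0.20).

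The nuclear partners of the mitochondrially encoded subunits were also mostly not called. Of 80 tested nuclear subunits of the respiratory complexes and ATP synthase, 1 rose, 4 fell and 75 did not pass, or 6.25% called, against 14.5% of all tested genes. In complex I, with 37 tested genes, Ndufb5 fell from 7.72 ± 0.489 to 5.81 ± 0.524 FPKM (SD, n = 3 each). In complex II, which has no mitochondrially encoded subunit, Sdha fell from 54.4 ± 3.95 to 40.9 ± 1.36 FPKM and Sdhc from 21.7 ± 1.20 to 17.0 ± 1.07 FPKM, 2 of 4 genes. In complex III none of 9 and in complex V none of 17 passed. Uqcr10 and Uqcr11 had log2 fold changes of 0.09 and 0.13, and Atp5a1 and Atp5b of -0.22 and -0.11.

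The largest change among these partners was in complex IV, where 1 of 13 genes was called. Cox6a2, the heart and muscle form of subunit 6a, fell from 70.1, 130.3 and 114 FPKM in control libraries 1, 3 and 4 to 37.2, 26.0 and 42.5 FPKM in Bcas2 cKO libraries 3, 4 and 5. Every Bcas2 cKO library was below every control library, and the log2 fold change was -1.53 (SE 0.27, limma adjusted p 0.014). The call held in 5 of the 6 leave-one-out fits. Ndufb5 and Sdha each held in 1 of the 6 fits and Sdhc in none. These 3 falls also depended on the scaling: with FPKM rebuilt from the recovered reads, the log2 fold change was -0.23 for Ndufb5, -0.26 for Sdha and -0.19 for Sdhc, with limma adjusted p of 0.14, 0.087 and 0.19.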

How the data were processed

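The authors deposited 1 table of FPKM per gene and library, with gene lengths, biotypes and coordinates. Per the labels' protocols, Trizol served for RNA extraction and a SMARTer mRNA-seq kit for the libraries. The build was GRCm38 (mm10), per the submitters' processing notes. Aligner, counter, strand setting and treatment of multiply mapping reads are not stated in the sources used here. Multiplied by gene length, 100% of the values above 0 came out as whole reads (within 0.01 of a read) once divided by the worth of 1 read in that library. The depth in the FPKM was 0.890 to 1.11 times their total, so the values carry a scaling by the authors. Tested genes had an average of 1 FPKM or more; the test ran on log2(FPKM + 1), a pseudocount of 1, with limma 3.58.1 (eBayes with trend, R 4.3.3), over all 6 libraries, as tested on simulated data. Fold changes on this scale understate those of low genes. Genes named were all mitochondrial mRNAs, rRNAs and tRNAs of at least 1 FPKM, and of each nuclear list up to 3 called members, or the 2 of highest level where none was called; others are named for their role. One gene that the rule names is not reported here. The members and lists were chosen with earlier results of these data known. Sequences were compared with Biopython 1.88 in Python 3.11.15.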

Additional observations from a re-analysis of the deposited data

How the results depend on the processing

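Of 807 refits of 48 named genes under other settings, 703 left the call as it was, 74 lost it, 30 gained it and none changed sign with a call. Counts that moved by over 1.5 times were as follows, and the cause was not tested. With no filter beyond a mean above 0, 1144 genes were called and no mitochondrial gene rose; more genes are tested there. Against none, 1 mitochondrial gene fell over genes of at least 5 FPKM, 1 after rescaling without hormone genes, 1 with voom and 2 with quantile normalization; 6 rose with voom. Of the nuclear genes of mitochondrial gene expression, 4 were called, against 9 with rebuilt FPKM, 9 with median-of-ratios scaling, 9 rescaled without the mt- genes, 10 with quantile normalization and 12 with voom. The ratio of mitochondrial shares was 0.933 without the hormone genes in the total. Leaving out each library gave 878 to 1950 genes called, 0 to 4 mitochondrial rises, 0 to 2 falls, 2 to 5 nuclear genes of mitochondrial gene expression, and a log2 fold change of Bcas2 of -0.52 to -0.27. No mitochondrial gene rose without control library 4, Bcas2 cKO library 4 or Bcas2 cKO library 5. The groups share the numbers 3 and 4, but nothing in the labels says that they pair samples, and the deviations of same-numbered libraries correlated at -0.15 and 0.05. A replicate block on these numbers gave 538 genes called, 1 mitochondrial rise (mt-Tw), 1 fall (mt-Co3) and 1 nuclear gene of mitochondrial gene expression. Most tRNA genes had under 20 reads in every library, which limits the precision of their values.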

Other observations

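Beside the called genes, a few mitochondrial values stood out and are given with no test. The ratio of mt-Nd6 to mt-Nd5, neighbours on opposite strands, was 1.13, 1.79 and 1.22 in control libraries 1, 3 and 4 and 1.13, 1.42 and 1.32 in Bcas2 cKO libraries 3, 4 and 5. Control library 3 was the highest of the 6. With the strand setting not stated, reads counted for mt-Nd6 may come from either strand. mt-Tp, per kilobase, was 10.7 to 12.8% of the level of mt-Cytb, the nearest mRNA gene, in the controls and 10.1 to 11.2% in Bcas2 cKO. The gene mt-Tt lies between the 2. The ratio of 16S to 12S rRNA was 1.12 to 1.44 in the controls and 0.991 to 1.38 in Bcas2 cKO. Gm29216, the copy of part of mt-Co1, was 44.0 FPKM in Bcas2 cKO library 5 and 7.05 to 25.0 FPKM in the other libraries, while Gm13340, a longer copy of mt-Co1 on chromosome 2 with 97.6% identity, was 0.939 to 1.15 FPKM throughout. Outside mt-Tp and the 5 genes between mt-Nd2 and mt-Co1, the tRNA genes had 51 to 93 reads per library in the controls and 46 to 85 in Bcas2 cKO.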
